A study of Sus scrofa with 10 samples.

Results

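The genes of the WAVE complex, the protein machine that switches on actin branching, and the GTPase that activates it were followed in pig morulae after knockdown of DDB1. The set holds 10 of the 24358 genes listed, namely WASF1, WASF2, WASF3, CYFIP1, CYFIP2, NCKAP1, ABI1, ABI2, BRK1 and RAC1, with 26 of the 47421 listed isoforms. Members were chosen by gene name, and WASF1 was picked for its small p in the comparison of DDB1_KD with NC. Its difference between these groups is therefore described by its values and a fitted size, with no p, and that of its isoforms by values alone.

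RNA was sequenced from 5 DDB1_KD and 5 NC libraries of parthenogenetic pig morulae. Before parthenogenetic activation the matured oocytes of the DDB1_KD group received siRNA against DDB1, which links substrates to CUL4 ubiquitin ligases, and those of the NC group received non-specific siRNA. Embryos of both groups carried no paternal genome, and the labels do not say how many embryos a library holds or whether each library came from its own culture, so p-values reflect only how these libraries differ, which may be technical. Levels are FPKM as deposited, fragments scaled to transcript length and library size, and means are given ± SD over the 5 libraries of a group.

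The WAVE complex joins a WAVE protein (WASF1, WASF2 or WASF3) to a CYFIP subunit, NCKAP1, an ABI subunit and the small subunit BRK1. In the resting complex the WAVE protein is held inactive. Active RAC1 binds the CYFIP subunit and frees the tail of the WAVE protein, which then turns on the ARP2/3 complex, the nucleator of branched actin filaments. In embryos of mammals, cortical actin takes part in the compaction of blastomeres and in polarity at the morula stage.

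Library totals were 32466912 to 47737219 estimated counts in DDB1_KD and 33737657 to 50911295 in NC. DDB1 had 142 to 262 counts in DDB1_KD and 304 to 753 counts in NC, without overlap. Of 11 early embryo markers, 10 are in the table, with a summed level of 250.05 to 716 FPKM in DDB1_KD and 413 to 894 FPKM in NC. Of 12 cumulus cell markers, 11 are in the table, with a summed level of 1.40 to 3.23 FPKM in DDB1_KD and 1.27 to 2.02 FPKM in NC. FSHR, AMH, INHA and CYP11A1 of this list had a count of 0 in every library. PTX3, TNFAIP6, CYP19A1, INHBA and FOXL2 had low values in some libraries. The highest of these were TNFAIP6 at 0.251 FPKM in DDB1_KD and CYP19A1 at 0.117 FPKM in NC. VCAN, a matrix gene, was the highest of the list at 0.909 to 2.24 FPKM in DDB1_KD and 0.737 to 1.39 FPKM in NC, and STAR, of steroid synthesis, had 0.106 to 0.872 FPKM in DDB1_KD and 0.102 to 1.14 FPKM in NC. KRT8, a keratin of the outer cells, ran from 0.0754 to 119 FPKM in DDB1_KD and from 33.9 to 179 FPKM in NC. KRT18 ran from 3.71 to 332 FPKM in DDB1_KD and from 119 to 453 FPKM in NC. GATA3 ran from 0.0001 to 5.11 FPKM in DDB1_KD and from 1.62 to 14.0 FPKM in NC. TEAD4 ran from 4.24 to 14.6 FPKM in DDB1_KD and from 4.28 to 10.5 FPKM in NC. For NANOG and CDH1 the lowest value was in NC. The highest value was in DDB1_KD for SOX2, NANOG, DPPA2, TEAD4 and CDH1. For POU5F1, LIN28A, KRT8, KRT18 and GATA3 the highest value was in NC.

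Transcripts left over from the oocyte varied widely between libraries. Of 22 maternal oocyte genes such as the zona pellucida gene ZP4 and the oocyte growth factor gene GDF9, 19 are in the table and 1 of these, TLE6, had a count of 0 throughout. Their summed level ran from 19.0 to 773 FPKM in DDB1_KD and from 30.4 to 238 FPKM in NC. DDB1_KD replicates 2, 3 and 5 were highest by the mean over the 15 of these genes above the filter, at 4.48, 4.22 and 4.005 log2 CPM. DDB1_KD replicates 4 and 1 were at 2.25 and 0.559 log2 CPM, and the NC libraries lay between 1.14 and 3.79 log2 CPM. In bulk RNA, fewer cells of a kind and less RNA per cell cannot be told apart.

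The annotation limits what some rows measure. WASF1 (ENSSSCG00000004404) lies on chromosome 1 from 76107530 to 76180306 on the minus strand of the susScr11 build. Its outermost 1143 bases, 76179164 to 76180306, overlap CDC40, a splicing factor gene on the plus strand. CDC40 averaged 25.8 ± 6.46 FPKM (DDB1_KD) and 25.06 ± 2.70 FPKM (NC), far above WASF1. The sources used here do not say whether reads were assigned by strand, so reads of that stretch cannot be told apart.

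CYFIP1 (ENSSSCG00000031951; chromosome 15, 32172618 to 32178103, plus strand) is listed as a model of 1 exon that covers 5486 bases, which as a length is 4.96% of what NCBI RefSeq gives the gene on Sscrofa11.1. Of these bases 4027 overlap NIPA2 on the other strand, a gene that averaged 12.5 ± 6.39 FPKM (DDB1_KD) and 13.9 ± 3.44 FPKM (NC). Only 2478 of the bases lie inside the RefSeq gene and 3008 lie beyond its end, so more of the row lies outside CYFIP1 than inside it. The WASF3 row (ENSSSCG00000009300; chromosome 11, 4322893 to 4363618, plus strand) spans 38.7% of the RefSeq gene. The rows of the other members span 97.2% to 101% of theirs. These shares are of spans on the genome with introns, and do not give the part of an mRNA that a row covers.

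Over the 10 libraries the members spread over a wide range of FPKM. BRK1 averaged 133 FPKM and RAC1 109 FPKM, followed by ABI1 at 22.4 FPKM. NCKAP1 averaged 6.87 FPKM, WASF3 6.38 FPKM and WASF2 6.33 FPKM. WASF1 averaged 1.35 FPKM, CYFIP1 0.754 FPKM, CYFIP2 0.332 FPKM and ABI2 0.161 FPKM. RAC1 exceeded ABI1, ABI1 exceeded NCKAP1 and WASF2 exceeded WASF1 in 10 of 10 libraries. The other neighbours in this order traded places, NCKAP1 above WASF3 in 6 of 10 and WASF3 above WASF2 in 5 of 10.

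WASF1, the WAVE protein for which the set was proposed, stood higher in every DDB1_KD library. It had 1.15, 3.45, 1.55, 1.27 and 2.46 FPKM in DDB1_KD replicates 1 to 5, against 0.517, 1.02, 0.756, 0.662 and 0.693 FPKM in NC replicates 1 to 5. The groups did not overlap, but DDB1_KD replicate 1 and NC replicate 2 lay close to each other. Replicates 2 and 5 were the highest of DDB1_KD. Mitochondrial genes held 16.8% and 24.4% of the counts in these 2 libraries and 12.2% to 16.4% in the other DDB1_KD libraries, against 8.58% to 18.4% in NC. DDB1_KD replicate 2 also had the lowest summed early embryo markers of all libraries (250.05 FPKM) and the highest summed maternal transcripts (773 FPKM). DDB1_KD replicate 5 had 405 and 213 FPKM. DDB1_KD replicate 3, with WASF1 at only 1.55 FPKM, had 271 and 268 FPKM and 16.4% mitochondrial counts. The part of these library traits in the result was not tested.

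The estimated counts behind these WASF1 levels were 146 to 511 in DDB1_KD and 64 to 157 in NC. WASF1 averaged 1.98 ± 0.972 FPKM (DDB1_KD) and 0.730 ± 0.186 FPKM (NC, SD over 5 libraries each), with a fitted log2 fold change of 1.42 (SE 0.40). Since WASF1 was chosen on this contrast, its size and its lack of overlap support nothing. Over all 8476 genes tested, 0.413% had no overlap between the groups. WASF1 passed the filter of a mean of 1 FPKM only through the DDB1_KD libraries.

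The RNAs of the other WAVE proteins did not separate the groups. WASF2, the most widely expressed WAVE protein of mammals, had 4.78, 5.87, 6.17, 7.65 and 4.83 FPKM in DDB1_KD replicates 1 to 5, against 7.70, 5.64, 8.99, 5.52 and 6.18 FPKM in NC replicates 1 to 5. Its values overlapped, with the highest in NC replicate 3 and the lowest in DDB1_KD replicate 1. The log2 fold change was -0.21 (SE 0.20, edgeR adjusted p = 0.977), and -0.10 without NC replicate 3.

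WASF3, a WAVE protein known from the brain and from tumour cell invasion, had 1.79, 11.05, 9.35, 3.61 and 10.0 FPKM in DDB1_KD replicates 1 to 5, against 7.01, 6.35, 10.6, 2.07 and 2.005 FPKM in NC replicates 1 to 5. Each group held libraries near 2 FPKM and libraries near 10 FPKM. The log2 fold change was 0.38 (SE 0.58, edgeR adjusted p = 0.977).

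The makeup of the RNA for WAVE proteins thus varied between libraries. Among the summed FPKM of WASF1, WASF2 and WASF3, WASF1 made up 9.07% to 17.0% in DDB1_KD libraries, against 3.397% to 8.02% in NC libraries, a description of the same difference that chose it. WASF2 held the largest share in 5 libraries and WASF3 in the other 5. The WASF3 share ran from 23.2% to 57.9% in DDB1_KD and from 22.6% to 52.0% in NC.

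Levels of paralogues within a library were compared over all 10 libraries, apart from the group comparison, with an exact two-sided sign-flip permutation test of log2(FPKM + 0.1), adjusted over 5 pairs. WASF1 was below WASF2 in 10 of 10 libraries (mean log2 difference -2.34, SD 0.967, n = 10, adjusted p = 0.00326). WASF1 was also below WASF3 in 10 of 10 libraries (-2.08, SD 0.972, adjusted permutation p = 0.00326). These tests use the same WASF1 values on which it was chosen, so its mean gaps pool groups that differ by choice. The difference of WASF2 from WASF3, 0.26 with an SD of 1.003, did not pass (adjusted permutation p = 0.426). For these tests the smallest unadjusted p that 1024 sign flips can give is 0.00195.

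The ABI subunits, which bind the WAVE protein and adaptors of signalling, came almost wholly from ABI1. ABI1 exceeded ABI2 in 10 of 10 libraries, by a mean log2 difference of 6.56 (SD 0.763, n = 10, adjusted permutation p = 0.00326). ABI2 had 0 to 87 counts in DDB1_KD and 32 to 108 counts in NC and lay below the filter of a mean of 1 FPKM.

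ABI1 had 20.9, 28.8, 22.5, 21.2 and 23.2 FPKM in DDB1_KD replicates 1 to 5, against 20.3, 23.3, 22.5, 20.5 and 20.7 FPKM in NC replicates 1 to 5. DDB1_KD replicate 2 was the highest and the remaining libraries lay within a narrow band that both groups shared. Its coefficient of variation over the 10 libraries was 11.3%, lower than in all but 0.684% of the genes tested, whose median was 35.2%. More abundant genes tend to vary less, and this was not adjusted for level. The log2 fold change of ABI1 was 0.13 (SE 0.16, edgeR adjusted p = 0.977), and leaving out DDB1_KD replicate 2 gave 0.066 and NC replicate 2 gave 0.20.

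NCKAP1, the scaffold subunit that pairs with the CYFIP subunit, varied more. It had 3.65, 7.80, 3.56, 9.39 and 12.6 FPKM in DDB1_KD replicates 1 to 5, against 10.3, 4.08, 7.92, 5.11 and 4.33 FPKM in NC replicates 1 to 5. The groups overlapped, and DDB1_KD held both the highest library, replicate 5, and the lowest, replicate 3. The log2 fold change was 0.23 (SE 0.38, edgeR adjusted p = 0.977), and -0.098 without DDB1_KD replicate 5.

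The CYFIP subunits, through which RAC1 acts on the complex, were the least well measured. CYFIP1 had 0, 105, 409, 501 and 0 counts in DDB1_KD replicates 1 to 5, against 204, 82, 31, 172 and 184 counts in NC replicates 1 to 5. A count of 0 allows up to 3 counts, by counting error alone. CYFIP2 had 35, 265, 110, 8 and 218 counts in DDB1_KD replicates 1 to 5, against 118, 147, 188, 37 and 0 counts in NC replicates 1 to 5. Both genes overlapped between the groups and lay below the filter. CYFIP1 was higher than CYFIP2 in 5 of 10 libraries and lower in 5, with a mean log2 difference of 0.63 (SD 2.23, n = 10, adjusted permutation p = 0.426). Most bases of the CYFIP1 row overlap NIPA2, so this test cannot rank these paralogues.

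BRK1, the small subunit needed for assembly of the complex, had the highest mean of the members and exceeded RAC1 in 7 of 10 libraries. It had 144, 136, 147, 147 and 103 FPKM in DDB1_KD replicates 1 to 5, against 132, 93.8, 164, 102 and 163 FPKM in NC replicates 1 to 5. DDB1_KD replicate 5 stood below the other DDB1_KD libraries, near the 2 lowest NC libraries. The log2 fold change was 0.06 (SE 0.18, edgeR adjusted p = 0.979), and -0.0063 without NC replicate 2.

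RAC1, the GTPase that activates the complex, had 106, 81.2, 99.4, 153 and 60.5 FPKM in DDB1_KD replicates 1 to 5, against 146, 75.8, 112, 89.7 and 165 FPKM in NC replicates 1 to 5. The groups overlapped over most of their range. The log2 fold change was -0.23 (SE 0.25, edgeR adjusted p = 0.977), and leaving out DDB1_KD replicate 5 gave -0.10 and DDB1_KD replicate 4 gave -0.38. These are levels of RNA, and neither GTP loading nor protein was measured here.

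Of the 10 members, 7 passed the filter on low values, and of the 6 other than WASF1 none passed edgeR's test (unadjusted p under 0.05 in 0 of 6, against 2.89% of all genes). The share of all 8476 genes that passed was 0%. Fitted values of the 6 were higher in DDB1_KD for 4 and lower for 2, against 50% higher among all genes tested. The median of the 6 was 0.10, and that of all 8476 genes 0.00. Such values over members that passed a filter describe these libraries only. On counts simulated from these libraries the test recovered 18% of genes altered by 1 log2 unit and 80% of genes altered by 2 log2 units, with 5 false calls. That run altered 50 genes at each of 1, 2, 3 and 4 log2 units together and drew every gene independently. Recovery in these libraries may thus be lower, and DDB1 itself, at -1.39, did not pass. Shifts under 1, the size fitted for all 6, were not simulated.

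**Figure D1:**
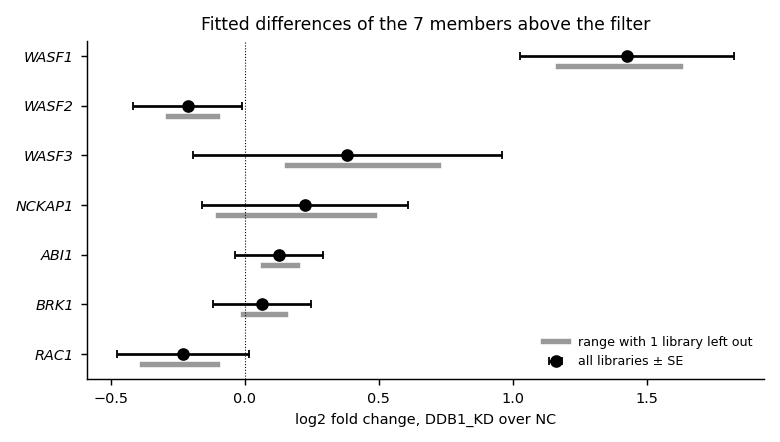
Fitted log2 fold change of DDB1_KD over NC (horizontal axis) for the 7 members above the filter, as black points ± SE, with the range when 1 library is left out in grey. The ranges of NCKAP1 and BRK1 cross 0. WASF1 was chosen on this contrast, so its place at the right is no finding.

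The deposited isoforms of ABI1 varied far more than the gene. Its 3 isoforms with a mean of at least 0.1 FPKM start within 28 bases of each other on chromosome 10 from 48939403 on the plus strand, and have 10, 10 and 8 exons. ENSSSCT00000031809, with 8 exons, had 15.7, 30.0, 11.1, 21.7 and 0.391 FPKM in DDB1_KD replicates 1 to 5, against 5.15, 1.42, 21.9, 2.06 and 6.53 FPKM in NC replicates 1 to 5. It was the leading isoform in 3 DDB1_KD libraries and in 1 NC library.

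ENSSSCT00000012106 of ABI1 had 0.798, 0.0412, 1.41, 0.136 and 22.4 FPKM in DDB1_KD replicates 1 to 5, against 0.146, 21.1, 2.93, 16.5 and 1.77 FPKM in NC replicates 1 to 5. It was nearly all of ABI1 in DDB1_KD replicate 5 (93.6% of the summed isoform FPKM) and led in NC replicates 2 and 4. ENSSSCT00000012105 led in DDB1_KD replicate 3 and in NC replicates 1 and 5. In each group every one of the 3 isoforms led in at least 1 library, while the gene stayed between 20.3 and 28.8 FPKM.

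WASF2 showed a like split between isoforms with different starts. ENSSSCT00000003971 starts at 84697426 on the minus strand of chromosome 6, and ENSSSCT00000029793 starts 50944 bases further in, at 84646482. The shorter span, ENSSSCT00000029793, had 897, 870, 0, 1154 and 927 counts in DDB1_KD replicates 1 to 5, against 1306, 1, 0, 0 and 0 counts in NC replicates 1 to 5. It was thus the larger isoform in 4 DDB1_KD libraries and in 1 NC library, and near or at 0 elsewhere.

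ENSSSCT00000003971 of WASF2 had 1.23, 2.36, 6.41, 1.55 and 1.48 FPKM in DDB1_KD replicates 1 to 5, against 1.25, 5.86, 9.34, 5.73 and 6.42 FPKM in NC replicates 1 to 5. Its log2 fold change in the isoform fit was -1.10 (SE 0.61, edgeR adjusted p = 0.9997), and that of ENSSSCT00000029793 was 1.35 (SE 2.37, adjusted p = 0.9997). NC replicate 1 and DDB1_KD replicate 3 each held the makeup seen in most libraries of the other group.

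WASF1 has 3 listed isoforms of 9 exons whose starts lie within 666 bases. ENSSSCT00000055065, the one that reaches furthest into CDC40, had 15, 168, 34, 74 and 408 counts in DDB1_KD replicates 1 to 5, against 0, 91, 0, 12 and 0 counts in NC replicates 1 to 5. ENSSSCT00000004867 had 24, 342, 104, 72 and 0 counts in DDB1_KD, against 0, 65, 21, 44 and 31 counts in NC. ENSSSCT00000046169 had 137, 1, 93, 0 and 1 counts in DDB1_KD, against 64, 1, 69, 64 and 87 counts in NC, and so was the largest in 1 DDB1_KD library and 4 NC libraries. The groups overlapped for each isoform.

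**Figure D2:**
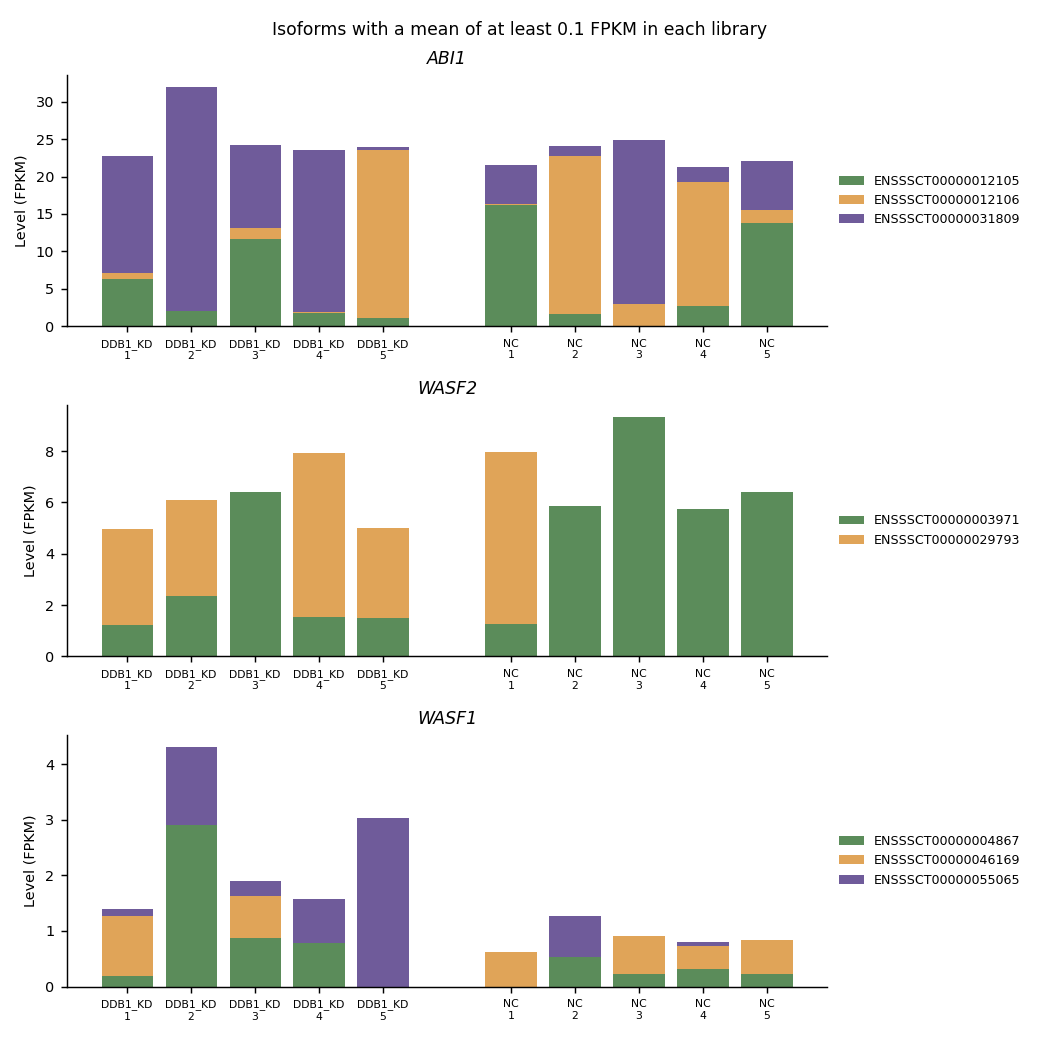
Stacked FPKM (vertical axis, from 0) of the isoforms of ABI1, WASF2 and WASF1 with a mean of at least 0.1 FPKM, in DDB1_KD libraries at left and NC libraries at right. Bars of ABI1 have similar heights but different leading isoforms, and ENSSSCT00000029793 of WASF2 is the larger part of 4 DDB1_KD bars and 1 NC bar.

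The deposited isoform counts can be estimates, and isoforms that share most of their sequence are hard to separate. Of 11250 isoforms tested, 0.00889% passed edgeR's test and 3.36% had an unadjusted p under 0.05. Of the 9 isoforms of members above the filter, 0 did so by either measure. NCKAP1 was carried by ENSSSCT00000055458 (99.6% of its isoform FPKM in the library where that share was lowest), and CYFIP2 mainly by ENSSSCT00000037510. WASF3, CYFIP1, BRK1 and RAC1 have 1 listed isoform each.

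WASF3 went with the maternal transcripts of a library. This comparison was chosen after the values were seen, and WASF3 is not on the maternal list. In edgeR's fit with the group and the maternal level side by side, WASF3 rose by 0.78 on the log2 scale (SE 0.12) for each unit of the mean maternal log2 CPM (adjusted p = 0.00392 over all genes). Of 8461 genes outside the maternal list, 3.04% passed in either direction and 2.75% with a rise. With 1 library left out, and the maternal list included, 148 genes (without NC replicate 3) to 321 genes (without DDB1_KD replicate 1) passed.

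WASF3 had 9.35 to 11.05 FPKM in the 3 DDB1_KD libraries with most maternal transcripts and 10.6 FPKM in the highest NC library. It had 1.79 FPKM in the lowest DDB1_KD library, and 2.005 and 2.07 FPKM in the 2 lowest NC libraries. With 1 library left out the slope stayed between 0.75 and 0.94, with adjusted p of 0.00554 to 0.0202. In the fit with the maternal level, the group difference of WASF3 was -0.16 (SE 0.27), against 0.38 without it.

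None of the other 6 members passed this test of the slope. WASF1 had a slope of 0.28 (SE 0.14, edgeR adjusted p = 0.304), NCKAP1 one of 0.25 (SE 0.16, adjusted p = 0.388) and RAC1 one of -0.15 (SE 0.091, adjusted p = 0.368). ABI1 and WASF2 had slopes of 0.081 and 0.082, and BRK1 one of -0.020. With the maternal level in the fit, the log2 fold change of WASF1 was 1.16 (SE 0.36). This is again the contrast that chose WASF1, so the value supports nothing.

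**Figure D3:**
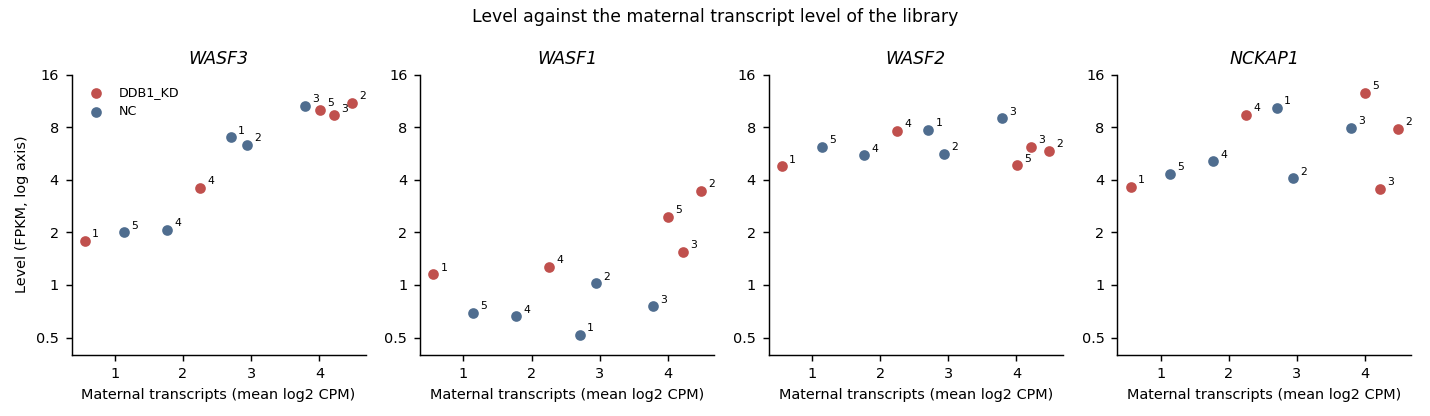
FPKM of WASF3, WASF1, WASF2 and NCKAP1 (vertical axes, log scale) against the mean log2 CPM of 15 maternal oocyte transcripts (horizontal axes), DDB1_KD in red and NC in blue, with replicate numbers. WASF3 spans 1.79 to 11.05 FPKM in DDB1_KD and 2.005 to 10.6 FPKM in NC, low at the left and high at the right. The WASF1 points of DDB1_KD lie above those of NC, the contrast on which WASF1 was chosen.

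The genes around the complex were taken from textbook lists, and none passed edgeR's test, against 0% of all genes. Of 10 subunit genes of the ARP2/3 complex, 9 were above the filter, 3 with a higher and 6 with a lower fitted value in DDB1_KD (median log2 fold change -0.18). ACTR3, a core subunit that forms the seed of the new branch, averaged 33.3 ± 10.9 FPKM (DDB1_KD) and 41.8 ± 8.51 FPKM (NC), with a log2 fold change of -0.32 (SE 0.26). Its partner ACTR2 was at -0.26 (SE 0.19) and the subunit gene ARPC5L at -0.24 (SE 0.17). Without DDB1_KD replicate 2 ACTR3 was at -0.15 and ACTR2 at -0.15.

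Other nucleation promoting factors and their partners had 9 of 15 genes above the filter, 4 higher and 5 lower (median -0.06). Of the 4 higher, WIPF2 and JMY passed the filter only through the DDB1_KD libraries. WIPF2, which binds N-WASP, averaged 2.47 ± 1.99 FPKM (DDB1_KD) and 0.917 ± 0.977 FPKM (NC), a log2 fold change of 1.38 (SE 0.71). Leaving out DDB1_KD replicate 4 gave 0.84 and leaving out NC replicate 3 gave 2.12. Cortactin, CTTN, which stabilises branches, was at -0.37 (SE 0.25), and WASHC4, of the endosomal WASH complex, at 0.34 (SE 0.26), or 0.19 without DDB1_KD replicate 2.

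Rac exchange factors, GAPs and effectors had 12 of 31 genes above the filter, 5 higher and 7 lower (median -0.06). The effector kinase PAK4 was at -0.35 (SE 0.38), and leaving out DDB1_KD replicate 4 gave -0.64 and DDB1_KD replicate 2 gave -0.18. The exchange factor ARHGEF7 was at 0.29 (SE 0.32), and at 0.11 without NC replicate 5. Of 11 genes that replace or bind WAVE complex subunits, 10 are in the table and 1 was above the filter. That gene was CYRIB, an inhibitor that binds RAC1 in competition with the complex, which averaged 6.91 ± 1.04 FPKM (DDB1_KD) and 6.22 ± 0.636 FPKM (NC), the fitted log2 difference being 0.16 (SE 0.19), or 0.097 without DDB1_KD replicate 5 and 0.26 without DDB1_KD replicate 1.

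Genes of branch inhibition and actin turnover had 12 of 18 above the filter, 6 higher and 6 lower (median -0.02). CFL2, a cofilin that severs old filaments, averaged 13.3 ± 8.77 FPKM (DDB1_KD) and 5.80 ± 0.991 FPKM (NC). Its log2 fold change was 1.19 (SE 0.40, edgeR adjusted p = 0.977), and 0.82 without DDB1_KD replicate 2. The capping protein gene CAPZA1 was at 0.58 (SE 0.35), and at 0.32 without DDB1_KD replicate 5. CAP1, a cyclase-associated protein that recycles actin monomers, was at -0.36 (SE 0.26), or -0.23 without DDB1_KD replicate 1.

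Genes of linear filament assembly, the counterpart of branching, had 11 of 18 above the filter, 4 higher and 7 lower (median -0.13). The formin DIAPH3 was at -0.34 (SE 0.21) and the formin FMN1 at 0.71 (SE 0.61), or 1.21 without NC replicate 3 and 0.47 without NC replicate 5. PFN1, a profilin that feeds monomers to formins, averaged 35.6 ± 19.3 FPKM (DDB1_KD) and 50.1 ± 11.4 FPKM (NC). Its log2 fold change was -0.50 (SE 0.33), and -0.28 without DDB1_KD replicate 2.

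**Figure D4:**
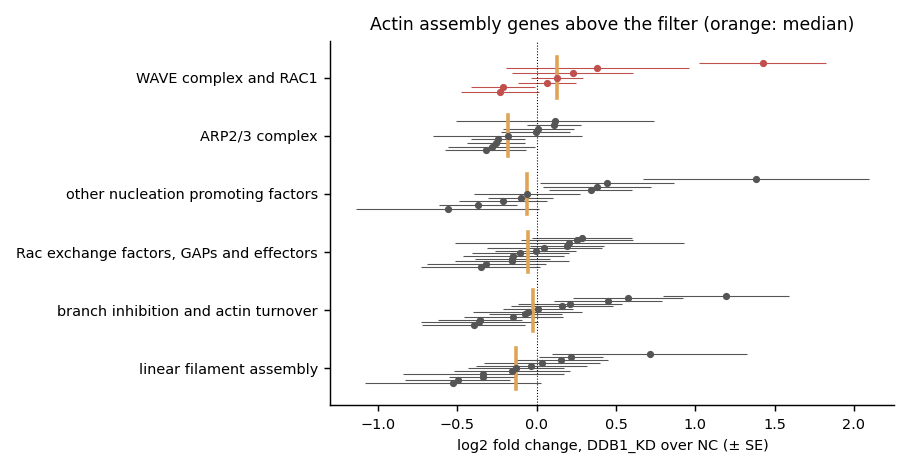
Fitted log2 fold change of DDB1_KD over NC (horizontal axis, ± SE) for the genes above the filter in the WAVE set (red) and 5 lists of actin assembly genes (grey), with the median of each in orange. Medians lie between -0.18 and 0.13, the latter being that of the WAVE set with WASF1 (0.10 without it). WASF1, WIPF2 and CFL2 stand furthest to the right, which is no finding. WASF1 was chosen on this contrast and WIPF2 passed the filter only through the DDB1_KD libraries. WIPF2 and CFL2 were each named for the smallest p of their list.

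The genes most like WASF1 over the 10 libraries, by Pearson's r of log2 CPM, were RBBP8 (r = 0.937), a DNA end resection factor, MPHOSPH9 (0.930), the deubiquitinase gene USP29 (0.915), the zinc finger gene ZSCAN12 (0.914) and ENSSSCG00000039405 (0.914). They were the highest of 8476 genes searched, and points share their libraries' scaling and depth. The match runs over both groups on the values that chose WASF1, so these genes tend to share its group difference by construction.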

How the data were processed

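The deposited tables hold, per the file headers, an FPKM and a count for every gene and isoform in each library. The authors' values in the count columns are treated as estimated counts, are already whole and needed no rounding. The submitters' processing notes list StringTie, HISAT2, fastp, edgeR, ChIPseeker and HOMER with the build susScr11 but give them no role. Columns spell DDB1 as DBB1 and were matched by group and number. The table names 8 members, WASF1 was matched through its NCBI gene number to NCBI RefSeq (Sscrofa11.1), CYFIP1 through a table of Ensembl names, and CYRIB and 3 other list genes through older symbols. No member name had a duplicate row.

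edgeR 4.0.16 (glmQLFit and glmQLFTest, TMM scaling, R 4.3.3) was fitted to group alone over genes or isoforms with a mean of at least 1 FPKM over the 10 libraries, with Benjamini-Hochberg adjustment over all of them and a threshold of 0.05. Fold changes are DDB1_KD over NC. The SE of an edgeR value was derived from its test, as the unshrunk log2 coefficient divided by the square root of F. For WASF1 the SE thus carries the same information as its p. limma 3.58.1 and DESeq2 1.42.0 were run beside it. The slope on the maternal level was added after the data were seen. Members and lists were chosen with earlier results of these data known. Named are the members, DDB1, up to 3 genes per actin list with the smallest p, and the 5 genes most like WASF1. A gene among those that this rule selects is left out and not reported here. Overlapping genes, FSHR, AMH and other markers were named beside them for context. Fits were tested on simulated data in which many genes were altered at once and drawn independently, so recovery in these libraries may be lower. The slope fit recovered 15% of genes with a slope of 0.4 and 72% at 0.8, with 2 false calls. A planned test of isoform usage recovered 4% of genes at most, with 12 false calls, and was left out. Python 3.11.15, pandas 2.3.3 and matplotlib 3.10.9 drew the figures. The limit set by a count of 0 covers only counting error.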

Additional observations from a re-analysis of the deposited data

Results flagged for a closer look

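In 6 of 40 groups of 5 libraries checked for members and their isoforms, the highest or lowest library was set apart by a gap of more than 0.71 of the group's range. Chance flags about 1 in 20 groups, and isoforms of a gene are not independent.

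BRK1 in DDB1_KD replicate 5, at 103 FPKM, lay below the other DDB1_KD libraries (136 to 147 FPKM). Among isoforms of WASF2, ENSSSCT00000029793 in NC replicate 1, at 6.72 FPKM, was the only NC library with more than 1 count, and ENSSSCT00000003971 in DDB1_KD replicate 3, at 6.41 FPKM, lay above the other DDB1_KD libraries. Among isoforms of ABI1, ENSSSCT00000012106 in DDB1_KD replicate 5 was at 22.4 FPKM and ENSSSCT00000031809 in NC replicate 3 at 21.9 FPKM. The WASF1 isoform ENSSSCT00000055065 in NC replicate 2 was at 0.735 FPKM.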

How the results depend on the processing

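The count of genes passing was 0 in every alternative but DESeq2, which passed 2, DDB1 and YAP1, neither a member and both lower in DDB1_KD. Genes with an unadjusted p under 0.05 numbered 245 with edgeR, 353 with DESeq2 and 273 with limma, and with edgeR 876 without DDB1_KD replicate 4 and 135 without DDB1_KD replicate 2. The count of isoforms passing, 1, was 0 with a filter of 0.1 FPKM and 0 with the replicate number as a block, and ran from 0 to 2 when 1 library was left out. No member gene passed in any of the gene fits. The labels do not say whether a replicate number marks a shared batch. Deviations of same-numbered libraries correlated at -0.14 to 0.35. These values were not set against those of differently numbered libraries, so they cannot decide it. The replicate block gave WASF1 a log2 fold change of 1.34. WASF3 reversed to -0.16 with the maternal level as a covariate. When 1 library was left out, NCKAP1 ran from -0.098 to 0.48, BRK1 from -0.0063 to 0.15, WASF3 from 0.16 to 0.72 and WASF1, chosen on this contrast, from 1.17 to 1.62. The slope of BRK1 on the maternal level, -0.020, ran from -0.066 to 0.028, and was 0.0063 without DDB1_KD replicate 5 and 0.0089 without NC replicate 5. The causes of these shifts were not tested. The WASF3 slope was 0.79 with RLE size factors. The 5 paralogue differences kept their direction and their side of the threshold with a pseudocount of 1, with counts per kb and without any 1 library. Without a filter, CYFIP1 had a log2 fold change of 0.72 (SE 1.21), CYFIP2 one of 0.18 (SE 1.05) and ABI2 one of -0.84 (SE 1.003). CYFIP1, CYFIP2 and ABI2 had counts of 0 in some libraries, also in deep ones.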
